A study of Mus musculus with 4 samples.

Results

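The epithelium of the ileum was compared with that of the proximal colon in germ-free mice, which are raised without microbes. The comparison used 2 of the 4 arrays of the series, 1 array of germ-free ileal epithelial cells and 1 of germ-free colonic epithelial cells, chosen by their labels, and all probe sets that are not controls (45037 of 45101). The mice were of the C57/BL6 strain, with no engineered allele or treatment named, and their age and sex are not given in the labels. Epithelial cells were cut by laser from tissue sections (10 µm), and hematoxylin staining is named for both germ-free groups. RNA of about 16000 cells, some 4000 from each of 4 mice, was pooled, and 40 ng of it was amplified in 2 rounds and hybridised to a single array. The remaining 2 arrays held the same regions of wild type C57/BL6 mice, the control animals, prepared alike except that no stain is named. Since each group was 1 pooled array, no spread between mice was measured, no difference here has a replicate check, and no p-value was computed.

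The ileum is the last stretch of the small intestine. Its absorptive cells, the enterocytes, break down sugars and peptides at a brush border, take up the products, package fat into lipoproteins and recover bile acids. Paneth cells at the base of its crypts release antimicrobial proteins. Colonocytes, the absorptive cells of the colon, chiefly take up sodium, chloride, water and short-chain fatty acids, which microbes make. A germ-free animal has both regions but no microbes in either, so the comparison addresses which regional differences are present without them.

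Values are intensities of probe sets after quantile normalization of all 4 arrays. An intensity of 62.4, the median over all arrays, served as floor, and a fold against an array below it is given as "at least". Differences are log2 values of ileum minus colon, so a positive value means higher in ileum. The brightest probe set of a gene stands for it, and a gene was measured if the ileal or the colonic array exceeded the floor. Intensities of different genes depend on their probes and are not set against each other.

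The labels were checked against defining markers of each region. Car1, a carbonic anhydrase of colonocytes, was below the floor at 32.5 on the germ-free ileal array and at 12438 on the colonic array, at least 199-fold higher in colon. The wild type values were 64.7 in ileum and 14384 in colon. Fabp6, the ileal bile acid binding protein, was at 18190 in germ-free ileum and 6008 in germ-free colon, a 3.03-fold difference, against 16920 and 767 in wild type mice. Both genes lay on the side their labels imply, but the germ-free colonic array carried far more Fabp6 signal than the wild type colonic array. The other defining markers separated the germ-free arrays less or not at all. Slc10a2, the bile acid transporter of the ileal brush border, was at 510 in germ-free ileum and 424 in germ-free colon (0.26 log2), and at 618 and 261 in wild type mice. Aqp8, a water channel of colonocytes, was at 130 in germ-free ileum and 76.4 in germ-free colon (0.77 log2), the opposite side from the wild type arrays, where it was at 81.3 and 545. The arrays thus carried the labelled regions by Car1 and Fabp6, while Aqp8 leaned against the colonic label.

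**Figure D1:**
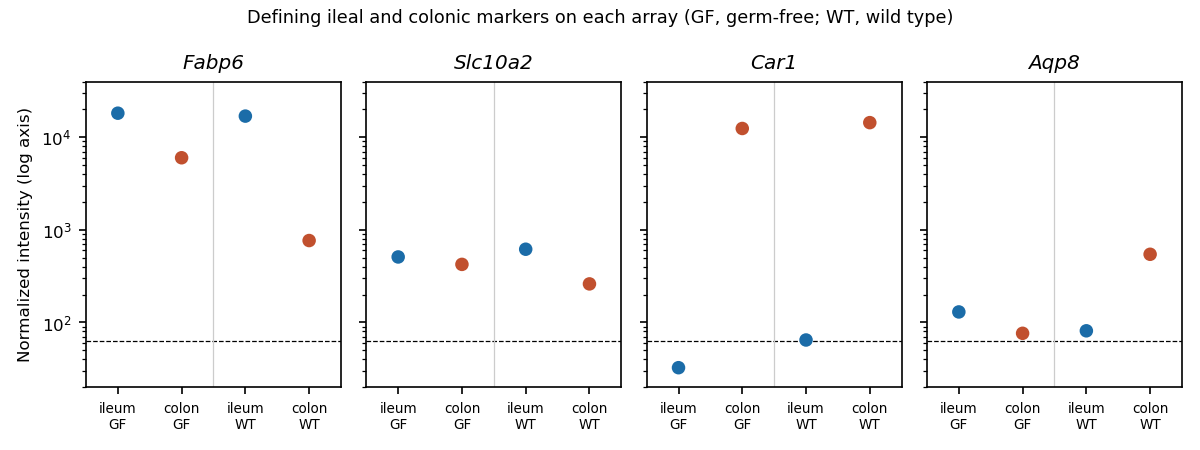
Normalized intensity (log axis) of the ileal markers Fabp6 and Slc10a2 and the colonic markers Car1 and Aqp8 on the 4 arrays, ileum in blue and colon in orange, 1 point per pooled array; the dashed line is the floor of 62.4. Car1 separates the regions in both kinds of mice, whereas Fabp6 is at 6008 in germ-free colon against 767 in wild type colon and Aqp8 is low on both germ-free arrays.

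General epithelial genes were alike in the 2 regions. All 10 epithelial markers were measured and none passed 2-fold, with values from -0.58 to 0.62 log2. Of all measured genes 7.37% passed 2-fold on the ileal and 5.88% on the colonic side. Epcam was at 10598 in ileum and 10951 in colon. Many markers of other cell types were below the floor. Of 12 matched T lymphocyte markers 4 were measured, with Cd3e below the floor at 6.92 and 26.5, and the summed intensity of the list was 1308 in ileum and 898 in colon. Plasma and B cell markers (6 of 11 measured) summed to 3709 and 1425 and myeloid markers (8 of 14) to 3325 and 1757. Fibroblast and smooth muscle markers (11 of 18) summed to 5595 and 5129, with Acta2 at 2421 and 1500. The sums were 999 and 755 for endothelial markers (8 of 12) and 458 and 426 for neuron and glia markers (2 of 10). Krt5 was the squamous marker past 2-fold, at 139 in ileum and 37.3 in colon, and Cela1 the pancreatic acinar marker, at 167 in ileum and 468 in colon. The sums of immune markers were thus higher on the ileal array, in large part through single genes for T lymphocyte and myeloid markers. Cd8a was at 512 and 129 (0.34 log2 with the mean of its probe sets). Lyz2, near-identical to the Paneth cell gene Lyz1, was at 3.71 log2. No list of other cell types was wholly below the floor. In the deposited values, the hybridization spikes had a median difference of -0.31 and the probe sets for 18S ribosomal RNA 0.84 log2 between the germ-free arrays. The signal from the 5′ end relative to the 3′ end, a sign of RNA quality, differed by 0.01 for Gapdh, 0.38 for Actb and -0.14 for pyruvate carboxylase. The part of these shifts in the differences below was not tested.

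Most genes had similar intensities in the 2 germ-free regions. Of 11986 measured genes (another 6207 were below the floor on both arrays), 8321, or 69.4%, were within 1.5-fold. Past 2-fold on the ileal side were 883 genes (7.37%), and on the colonic side 705 (5.88%); 337 of these 1588 differences are bounds. At 4-fold the counts were 189 (1.58%) and 176 (1.47%), and 67 genes passed 16-fold, 39 of them higher in ileum and 28 lower. The median over all measured genes was 0.04 log2. Counts and medians of the gene lists below are to be read beside this median and the 2-fold shares of 7.37% and 5.88%. The balance between the sides depended on the scaling. Higher calls made up 55.6% of all calls here. Left unscaled, the deposited values gave 627 higher and 1001 lower calls (38.5% higher) and a median of -0.11 log2, and scaling to a common median gave 1058 and 586 (64.4% higher) and a median of 0.18. Small differences are therefore to be read against a shift of that size. Per probe set, 1537 of 24735 measured passed 2-fold on the ileal side (6.21%) and 1541 on the colonic side (6.23%), and 443 of these 3078 have no gene name here. The 2-fold line cut through a continuum, since the genes just inside and just outside it were all at 1.0 or -1.0 log2 after rounding.

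The only internal measure of error was the spread between probe sets for the same gene. For 2501 genes with several bright probe sets, the brightest pair gave an SD of 0.35 log2 for the value of a single probe set. The gap between the 2 of a pair is wider than that SD by the square root of 2. Where the brightest passed 2-fold, the next went the same way for 282 of 297 genes and itself passed 2-fold in that direction for 230. This is technical error within 1 pair of arrays and leaves out variation between mice.

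**Figure D2:**
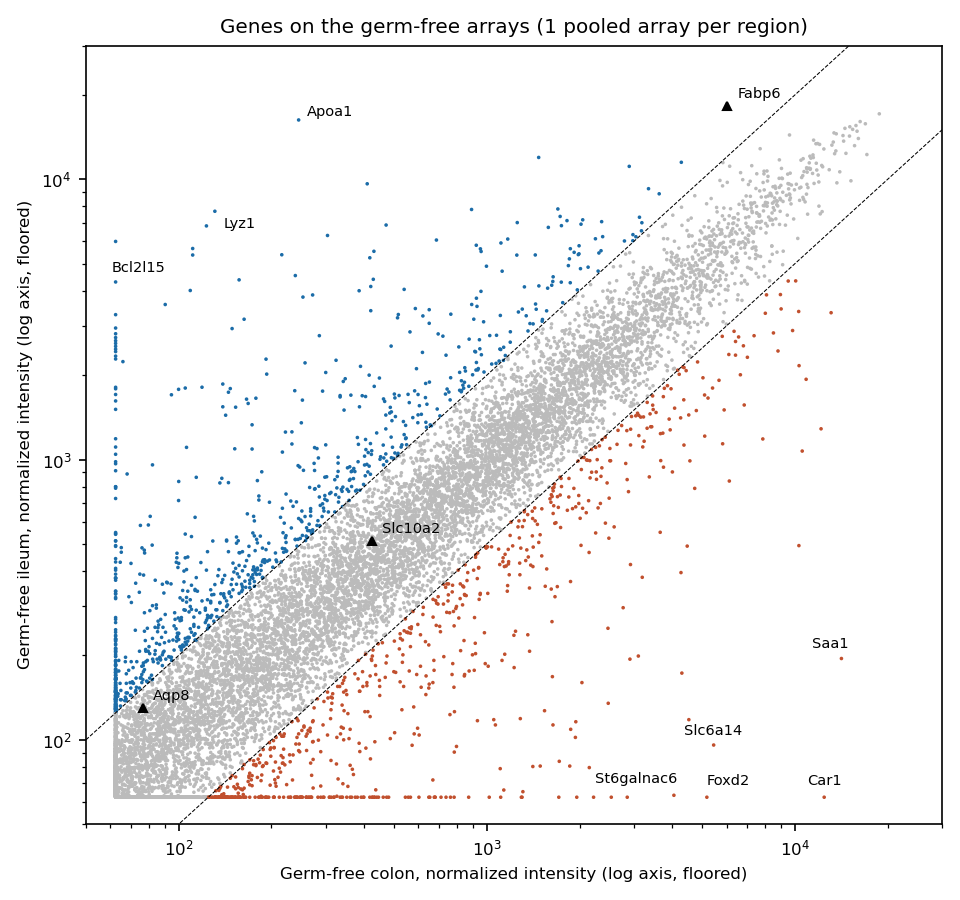
Normalized intensity of each measured gene in germ-free ileum against germ-free colon (both axes log, values below the floor of 62.4 drawn at it), 1 point per gene, with dashed lines at 2-fold. The 883 genes at least 2-fold higher in ileum are blue and the 705 lower ones orange; the black triangles are Fabp6, Slc10a2 and Aqp8.

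The 15 genes named on the ileal side were chosen by the size of their difference and have varied roles. Apoa1, the main protein of high density lipoprotein and a component of chylomicrons, was at 16273 in germ-free ileum and 245 in germ-free colon, and at 16058 and 34.8 in wild type mice. The germ-free difference was 66.4-fold, and all 3 other probe sets for Apoa1 gave log2 differences from 5.89 to 6.39. Mttp, the transfer protein that loads lipid onto apolipoprotein B, was at 2810 in ileum and 14.2 in colon, at least 45.0-fold higher, and its wild type intensities were 3112 and 20.9. Both genes were thus strongly ileal in either kind of mouse. Slc6a19, the main neutral amino acid transporter of the brush border, was at 5366 and 111 (48.4-fold). Slc26a6, an anion exchanger, was at 5660 and 111 (51.0-fold), and Pdzk1, a scaffold protein that binds such transporters, at 2723 and 18.3 (at least 43.6-fold). In wild type mice these 3 genes had ileal intensities from 2667 to 5696 and colonic ones from 3.08 to 78.8, a similar contrast.

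Among the others of this rank, Bcl2l15, of the BCL2 family, was at 4300 in ileum and 44.6 in colon, at least 68.9-fold higher. Clca4b, of the calcium-activated chloride channel regulator family, was 55.6-fold higher and Rdh7, of the retinol dehydrogenase family, at least 52.6-fold. Susd2, a membrane protein with a sushi domain, was at least 47.2-fold higher, Nat8, an N-acetyltransferase, at least 41.6-fold, Serpina1b, an alpha-1-antitrypsin, at least 39.7-fold and the RNA-binding protein gene Fxr2 39.5-fold. Each of these 7 genes was also past 2-fold on the wild type arrays, on the same side. Lyz1, the lysozyme of Paneth cells, was at 7687 in ileum and 131 in colon (58.7-fold). That value rests on probe sets that can also match other transcripts, since the remaining probe set of Lyz1 gave 0.62 log2 and the near-identical Lyz2 was at 888 and 68.0.

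The 15 genes named on the colonic side were chosen in the same way. Saa1, which encodes a serum amyloid A protein made by colonic epithelium, was at 195 in germ-free ileum and 14149 in germ-free colon, and at 1216 and 8267 in wild type mice. The germ-free difference was 72.7-fold, and the second Saa1 probe set gave -7.02 log2. Slc6a14, a sodium- and chloride-driven amino acid transporter, was at 95.8 and 5446 in germ-free mice and 727 and 5441 in wild type mice, so the colonic intensities were close and the ileal ones were not. Its germ-free difference was 56.9-fold. Car2, another carbonic anhydrase, was at 19.9 in ileum and 1958 in colon, at least 31.3-fold higher in colon, beside the at least 199-fold of Car1. St6galnac6, a sialyltransferase, was at 63.4 and 4046 (63.9-fold). Sptssb, a subunit of the enzyme that starts sphingolipid synthesis, was at 28.1 and 2855 (at least 45.7-fold), and Fa2h, which hydroxylates the fatty acids of sphingolipids, at 118 and 4524 (38.5-fold).

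The remaining genes of the colonic side were more mixed. Foxd2, a forkhead transcription factor, was at 6.08 in ileum and 5176 in colon, at least 82.9-fold higher in colon. The cytochrome P450 gene Cyp2d10 was at least 35.6-fold higher, Sult1a1, a phenol sulfotransferase, at least 27.4-fold, and Atp11a, a phospholipid flippase, 27.0-fold. Anxa1, an annexin with anti-inflammatory actions, was 24.8-fold higher, Pdk4, a kinase that restrains pyruvate oxidation, 23.1-fold, the glutamate receptor subunit gene Grin3a at least 20.8-fold and Niban1 at least 20.7-fold. Every gene of this colonic set was past 2-fold on the same side in the wild type arrays.

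**Figure D3:**
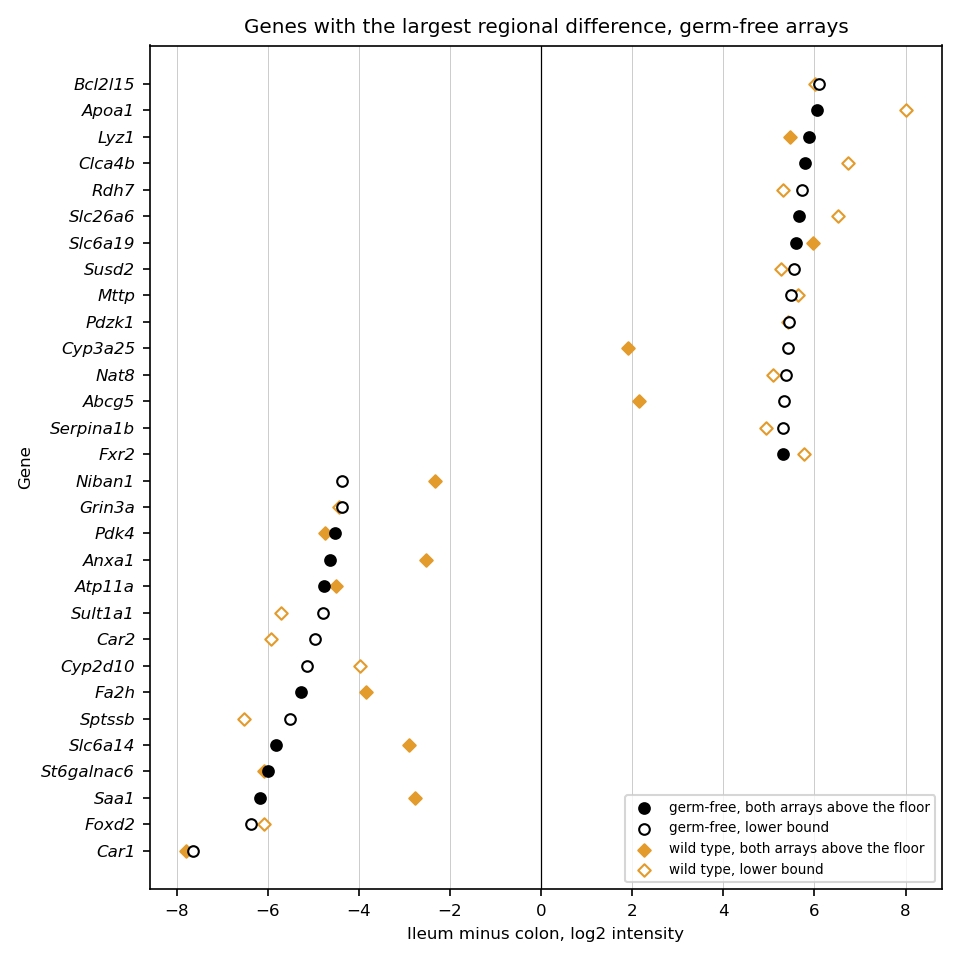
Log2 difference of ileum minus colon for the 15 named genes of each direction, germ-free arrays in black circles and wild type arrays in orange diamonds, open symbols marking lower bounds. All 30 genes lie on the same side in both kinds of mice, with the widest gaps at Cyp3a25, Abcg5, Saa1 and Slc6a14.

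Short stretches of promoter were examined because many enterocyte genes are known targets of HNF4, a nuclear receptor of gut and liver, as well as of HNF1, CDX and GATA factors. RefSeq windows of GRCm38.p6 from 250 bases before to 50 bases after each gene start were searched on both strands. The HNF4 letters CAAAGTCCA were in 7 of 187 promoters (150 genes) at least 4-fold higher in ileum, or 3.74%, and in 0 of 185 promoters (137 genes) at least 4-fold lower. They were in 0.533% of the 12374 promoters of measured genes and 0.475% of all 32851. The 4 matches that lie upstream of the start are printed here from 5′ to 3′ on the strand of the gene, with the match in capitals (CAAAGTCCA or, where it is on the other strand, TGGACTTTG) and flanks in lower case.
Cd302: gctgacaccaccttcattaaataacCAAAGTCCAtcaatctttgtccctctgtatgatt
Cyp3a11: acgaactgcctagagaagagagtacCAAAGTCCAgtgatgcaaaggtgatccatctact
Ptpn22: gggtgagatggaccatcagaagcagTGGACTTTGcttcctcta
Treh: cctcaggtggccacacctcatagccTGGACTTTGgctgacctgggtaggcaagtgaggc
The Cd302 stretch is chr2:60284584-60284642 on the minus strand, with the match 133 bases before the start, and that of Cyp3a11 is chr5:145879930-145879988 on the minus strand, 109 bases before it. Ptpn22 lies at chr3:103859752-103859794 on the plus strand with the match 18 bases before the start, and Treh at chr9:44673137-44673195 on the plus strand, 71 bases before it. Cyp3a11 (4.86 log2) oxidises drugs and bile acids, Treh (4.15 log2) is the brush border enzyme that splits trehalose, Cd302 (2.80 log2) is a lectin-like receptor and Ptpn22 (2.13 log2) a phosphatase best known from lymphocytes. The other 3 matches, in Nat8, Pdzk1 and Pipox, begin after the start.

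The other letters searched occurred on both sides. The shorter core CAAAGT, which the HNF4 letters contain, was in 24.6% of promoters at least 4-fold higher in ileum, 13.5% of those lower, 12.2% of those of measured genes and 14.4% of all promoters. The partial HNF1 site GTTAAT was in 14.4%, 9.19%, 4.69% and 7.10% in the same order, and the CDX letters TTTATGG in 4.28%, 2.16%, 1.89% and 2.75%. The GATA letters AGATAA were in 12.3%, 11.9%, 6.72% and 11.2%, and TATAAA in 11.8%, 14.1%, 7.98% and 13.6%. Both sides thus held more GATA, TATA and HNF1 letters than measured genes as a whole. Against all promoters, however, the GATA and TATA shares of both sides were close. The HNF4, HNF1 and CDX letters were more frequent on the ileal than on the colonic side, those of CDX in 8 against 4 promoters. These are matches of letters, several windows of a gene overlap, and the HNF4 example was singled out after its share was seen.

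Fat absorption and export favoured ileum. Of 15 measured members of the fat absorption list, 8 passed 2-fold on the ileal side and 1 on the colonic side, with a median of 1.03 log2 beside 0.04 for all genes. Mogat2, which rebuilds diacylglycerol from absorbed monoacylglycerol, was at 3798 in ileum and 253 in colon (15-fold). Dgat1, which completes the triglyceride, was at 7832 and 1700 (4.61-fold), and Tm6sf2, a factor in lipoprotein lipidation, at 4395 and 428 (10.3-fold). These 3 genes, from rebuilding the fat to loading the particle, were thus each over 4-fold brighter in ileum. Acsl3, an acyl-CoA synthetase, was the exception at 237 and 1358 (-2.52 log2), whereas Acsl5, of the same family, was 2.76-fold higher in ileum. Fabp2, the intestinal fatty acid binding protein, was at 15191 and 14524, while Fabp1, the liver form, was at 864 and 114 (7.61-fold). Of 7 measured genes of the apolipoprotein list, which includes Apobec1, the editing enzyme of the Apob transcript (-0.14 log2), 5 were higher and 0 lower, with a median of 2.44 log2. Apoc3, which slows lipoprotein clearance, was 10.5-fold higher, Apoc2, the activator of lipoprotein lipase, 7.18-fold, Apoa4 at least 5.43-fold and Apob 2.86-fold. The other 4 matched apolipoprotein genes, Apoe among them, were below the floor on both arrays.

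Sterol handling was split. The sterol exporter is a pair of proteins, and both were ileal. Abcg5 was at 2534 in germ-free ileum and 59.3 in germ-free colon, at least 40.6-fold higher, and Abcg8 at 1702 and 94.7 (18-fold). In wild type mice the colonic intensities were 838 and 425, so the regional difference was 2.15 and 1.93 log2 there against 5.34 and 4.17 in germ-free mice. Npc1l1, through which cholesterol enters the enterocyte, was at 5532 and 430 (12.9-fold), while Abca1, which exports cholesterol to lipoproteins, and Mylip, which degrades the low density lipoprotein receptor, were 2.44-fold and 2.76-fold higher in colon. Cholesterol synthesis favoured ileum, with 10 of 16 enzymes and regulators at least 2-fold higher, 0 lower and a median of 1.25 log2. Sqle, which makes squalene epoxide, was at 5384 and 1980 (2.72-fold), Cyp51 at 5456 and 2310 (2.36-fold) and Fdps at 334 and 89.5 (3.73-fold). Members from the mevalonate steps to the late sterol steps were among the 10, whereas Dhcr7, a last step, was at 1768 and 1771.

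Of 9 measured bile acid genes, 2 were higher in ileum (Fabp6 and Abcc2) and 1 lower, beside 7.37% and 5.88% of all measured genes. The exit transporter of the basolateral membrane is made of Slc51a and Slc51b, which were at 6780 and 3718 (1.82-fold) and at 6847 and 4297 (0.67 log2). Nr1h4, the bile acid receptor FXR, was at 2652 and 2614, and its target hormone gene Fgf15 was below the floor on both arrays. Abcc2, an apical export pump, was at 493 and 24.7 (at least 7.90-fold higher in ileum), and the related basolateral pump Abcc3 at 989 and 4560 (4.61-fold higher in colon). The apical and the basolateral pump thus lay on opposite sides.

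Genes for the digestion and uptake of sugars and peptides lay largely on the ileal side. Of 10 measured sugar genes 7 were higher in ileum and 1 lower, with a median of 1.91 log2. Treh was at 1108 in ileum and 41.4 in colon, Khk, the first enzyme of fructose use, at 2766 and 286 (9.66-fold), Slc2a5, the fructose transporter, at 387 and 76.9 (5.03-fold) and Slc5a1, the sodium-glucose transporter, at 7318 and 3128 (2.34-fold). Slc2a1, the widely expressed glucose transporter, was the exception at 789 and 4727 (5.99-fold higher in colon). Of 16 measured peptide and amino acid transporters, 11 were higher, 2 lower, and the median was 1.85 log2. Slc43a2, a neutral amino acid transporter, was 14.6-fold higher, Slc1a1, which carries glutamate, 14.2-fold and Slc16a10, an aromatic amino acid carrier, 12.2-fold. Slc15a1, the di- and tripeptide transporter, was at 3457 and 586 in germ-free mice (2.56 log2) and at 2887 and 81.3 in wild type mice (5.15 log2). Slc6a14 and Slc1a5 were the 2 on the colonic side.

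Of 10 measured brush border peptidases, 5 were higher in ileum and 0 lower, with a median of 1.46 log2. Anpep, aminopeptidase N, was at 4009 in ileum and 109 in colon (36.8-fold), Mme, neprilysin, at 2284 and 12.4 (at least 36.6-fold) and Xpnpep2, which cleaves before proline, at 1780 and 99.9 (17.8-fold). Dpp4, which removes dipeptides that end in proline, was at 6118 and 1169 (5.24-fold) and Enpep at 11115 and 2898 (3.84-fold). The wild type colonic intensities were lower for Dpp4 (347), Enpep (996) and Anpep (12.0), and the list's wild type median was 2.84. Mep1a and Mep1b, the meprin subunits, did not pass 2-fold at 0.02 and 0.66 log2.

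Vitamin uptake genes also favoured ileum, with 5 of 9 measured members higher and 0 lower (median 1.42 log2). Cubn and Amn form the receptor for vitamin B12 bound to intrinsic factor, and were at 11960 and 1473 (8.12-fold) and at 4918 and 1839 (2.67-fold). Tcn2, which carries B12 in blood, was at 6829 and 1746 (3.91-fold), so 3 proteins of the B12 route were on the same side. Slc52a3, the riboflavin transporter, was 2.95-fold and Slc5a6, which carries biotin and pantothenate, 3.60-fold higher. Metal transporters lay on either side. The zinc exporter gene Slc30a2 was at 1044 and 16.5 (at least 16.7-fold higher in ileum) and Slc39a5 2.83-fold higher, while the zinc and manganese importer gene Slc39a8 was at 117 and 932 (7.94-fold higher in colon; -0.99 log2 with the mean of its probe sets). Slc40a1, the iron exporter ferroportin, was at 1799 and 5401 (3.0-fold higher in colon). Flvcr1 and Flvcr2, described as heme transporters, were 6.24-fold and at least 15.7-fold brighter in ileum, though another Flvcr1 probe set read 0.22 log2. Calcium genes Slc8a1, a sodium-calcium exchanger, and S100g, the calcium-binding protein calbindin-D9k, were 18.5-fold and 6.19-fold higher in colon.

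Of 13 measured genes of gluconeogenesis and the urea cycle, 6 were higher in ileum and 0 lower, with a median of 0.71 log2. Cps1 and Otc, which make citrulline, were at 2235 and 65.9 (33.9-fold) and at 5245 and 417 (12.6-fold). G6pc, which releases free glucose, was at 957 and 82.2 (11.6-fold) and Fbp1 at 800 and 19.5 (at least 12.8-fold). Pck1, the usual control step of gluconeogenesis, did not follow, at 327 and 558 (-0.77 log2). In glycolysis 3 of 14 genes were lower in ileum and 0 higher, beside 5.88% and 7.37% of all measured genes. The median of the glycolysis list was 0.16 log2. Hk1 was at 550 and 3652 (6.64-fold higher in colon), Hk2 2.26-fold and Pfkl, liver-type phosphofructokinase, 3.03-fold higher. The Hk2 call was lost with median scaling (-0.94 log2).

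**Figure D4:**
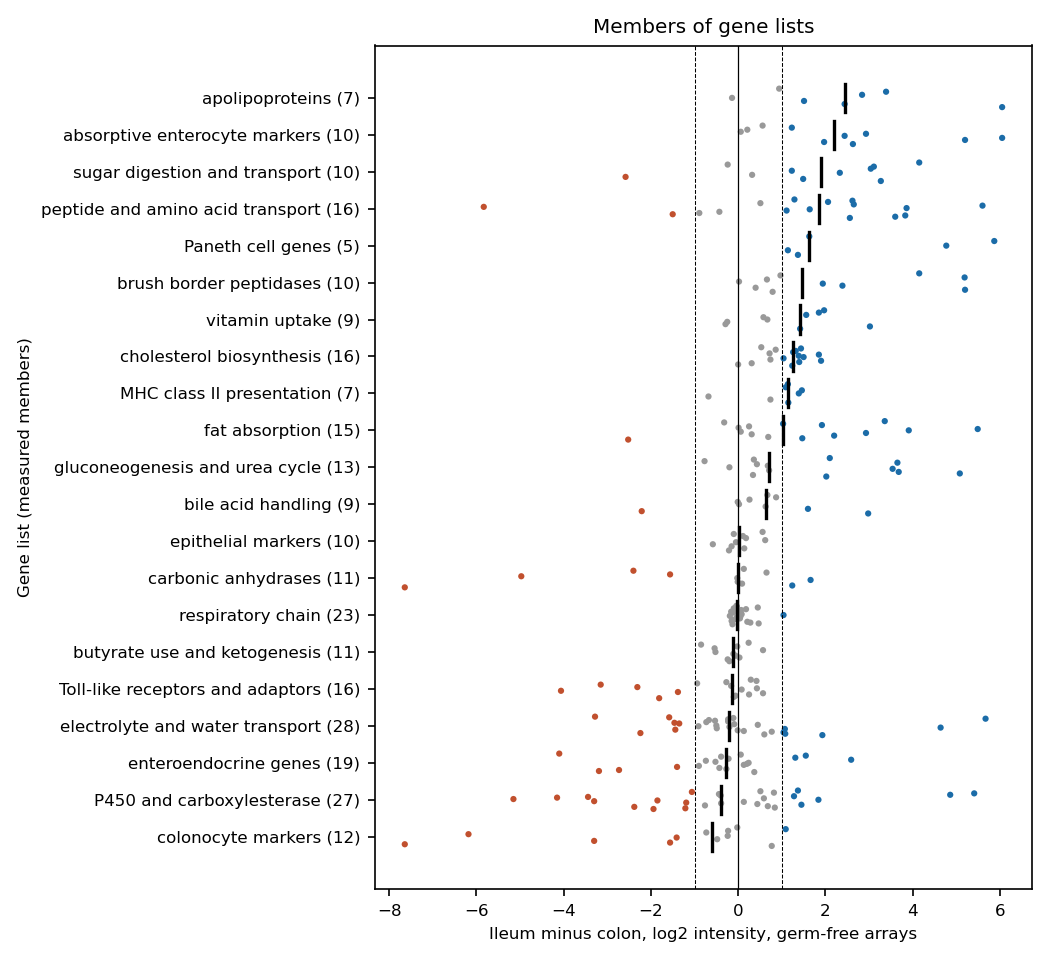
Log2 difference of ileum minus colon on the germ-free arrays for each measured member of 21 gene lists (number of members in brackets), with the list's median as a black bar and dashed lines at 2-fold. Blue points are at least 2-fold higher in ileum and orange points at least 2-fold lower; digestion, uptake and lipid lists lie to the right, epithelial markers and the respiratory chain around 0.

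Ion and water transport had members on both sides, 6 higher and 6 lower of 28 measured, beside 7.37% and 5.88% of all measured genes. The list's median was -0.22 log2. Guca2b, uroguanylin, which triggers fluid secretion, was at 5377 in ileum and 216 in colon (24.9-fold), and its receptor gene Gucy2c was at 2789 and 3212. The related hormone guanylin, Guca2a, was at 9708 and 13677 (-0.49 log2), so 1 of the 2 hormones was regional past 2-fold. Cftr, the chloride channel, was 2.10-fold higher in ileum. Slc9a3 and Slc9a2, sodium-hydrogen exchangers, were at 168 and 1632 (9.74-fold higher in colon) and at 1699 and 5089 (3.0-fold), although another Slc9a3 probe set read -0.83 log2. Scnn1a, a subunit of the epithelial sodium channel, and Nr3c2, the aldosterone receptor, were 2.75-fold and 2.55-fold higher in colon. Scnn1b, another channel subunit, was at 30.7 and 104, and Scnn1g was below the floor on both arrays. The chloride-bicarbonate exchanger Slc26a3 was at 5887 and 6893. Among carbonic anhydrases Car1, Car2, Car8 (5.29-fold) and Car4 (2.96-fold) were colonic, while Car13 was 3.15-fold higher in ileum.

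Colonocyte markers as a list had a median of -0.61 log2, with 5 of 12 lower in ileum and 1 higher. The 5 were Car1, Saa1, Cyp2c55 (9.85-fold), Car4 and Mettl7b (2.66-fold). Slc37a2, a phosphate-linked sugar phosphate antiporter, was on the other side at 133 and 38.7, at least 2.13-fold higher in ileum, while the wild type arrays read 78.5 and 315. The wild type median of the list was -1.74 log2, with 7 of 12 lower. Of genes for the use of butyrate, the main microbial fuel of colonocytes, 0 of 11 measured members were past 2-fold in germ-free mice. This stands beside 7.37% of all measured genes on the ileal and 5.88% on the colonic side. The median of the butyrate list was -0.11 log2. Slc16a1, a butyrate carrier, had the widest difference of the list at 1225 and 2207 (-0.85 log2). In wild type mice Slc16a1 passed 2-fold on the colonic side (-1.22 log2), alone among 10 measured, and the median was -0.27 log2. The respiratory chain was alike too, with Ndufa4 alone past 2-fold among 23 genes, at 4030 and 1966. That call was lost with the values as deposited (0.99 log2).

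Cytochrome P450 and carboxylesterase genes lay on both sides, also within subfamilies. Of 27 measured, 6 were higher in ileum and 10 lower, beside 7.37% and 5.88% of all measured genes. The list's median was -0.39 log2. Of the Cyp3a subfamily, 2 members were past 2-fold on the ileal side, Cyp3a25 at 2655 and 34.3 (at least 42.5-fold) and Cyp3a11 at 1810 and 37.6 (at least 29.0-fold). On the wild type arrays the colonic intensities were 1234 and 194, and the differences 1.91 and 3.49 log2. Cyp3a44 and Cyp3a13, of the same subfamily, were at 0.82 and -0.44 log2 in germ-free mice. Of the Cyp2d subfamily, the colonic members were Cyp2d10, Cyp2d34 (at least 17.8-fold) and Cyp2d9 (at least 10.9-fold), while Cyp2d26 was at 0.59 log2. Cyp2c55 and Cyp2c65 were 9.85-fold and 3.61-fold higher in colon and Cyp2c68 was 3.59-fold higher in ileum. Of the carboxylesterases Ces1g (5.19-fold), Ces1d (3.85-fold) and Ces1e (2.32-fold) were colonic and Ces2e was 2.72-fold higher in ileum. Transcripts within these subfamilies are similar, so a probe set may report more than its own gene. Among conjugating enzymes 5 of 28 were higher and 4 lower, beside 7.37% and 5.88% of all measured genes. They were led by Sult2b1 (5.98-fold higher in ileum) and Sult1a1 on the colonic side.

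Of 13 measured antimicrobial lectin and other defence genes, 5 were higher in ileum and 0 lower, beside 7.37% and 5.88% of all measured genes. The list's median was 0.91 log2. Reg3g, a lectin that kills Gram-positive bacteria, was at 9632 in germ-free ileum and 409 in germ-free colon, and at 11960 and 1602 in wild type mice. The germ-free difference was 23.5-fold. Reg3a was at 6068 and 686 (8.84-fold), whereas Reg3b was at 13787 and 11493 and did not pass 2-fold. Members of the Reg3 family thus differed widely in how regional they were. Zg16 and Lypd8, which keep bacteria off the epithelium, were at -0.10 and -0.48 log2. Of 19 Paneth cell genes listed 8 were matched, 5 were measured, and all of these 5 were at least 2-fold higher in ileum. Itln1, intelectin, was at 1706 and 18.9 (at least 27.3-fold), Mmp7, which activates defensins, at 280 and 90.4 (3.09-fold) and Ang4, a microbicidal ribonuclease, at 1556 and 604 (2.58-fold). The second Ang4 probe set read -0.02 log2. Habp2, the fifth, was at 137 and 58.6, and the defensins Defa3 and Defa31 were below the floor on both arrays.

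Of 16 measured Toll-like receptor, co-receptor and adaptor genes, 5 were lower in ileum and 0 higher, beside 5.88% and 7.37% of all measured genes. The list's median was -0.13 log2, and 11 members did not pass 2-fold. Tlr1 was at 116 and 1944 (16.7-fold higher in colon), Tlr4, the receptor of bacterial lipopolysaccharide, at 33.7 and 556 (at least 8.9-fold; -0.46 log2 with the mean of its probe sets) and Tlr2, the partner of Tlr1, at 31.0 and 309 (at least 4.94-fold). The co-receptor gene Cd14 was 3.5-fold and the adaptor gene Tirap 2.60-fold higher in colon. Tlr5, which senses flagellin, did not pass 2-fold (83.3 and 160), nor did Tlr3, Tlr9 or the adaptor Myd88. Wild type arrays read -4.12 for Tlr1, -1.97 for Tlr4 and -3.28 log2 for Tlr2, all on the colonic side.

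Of 7 measured genes of MHC class II presentation, 5 passed 2-fold on the ileal side and 0 on the colonic side. Ctss, the protease that trims the invariant chain, was at 7523 and 12078 (-0.68 log2), and the summed intensity of the list was 11494 in ileum and 13689 in colon. H2-Ab1 was at 907 and 329, H2-Aa at 942 and 359 and Cd74, the invariant chain, at 1002 and 450. The H2-Eb1 and Cd74 calls were lost with the values as deposited (0.87 and 0.92 log2), and those of H2-Ab1 and H2-Aa with the mean of their probe sets (0.07 and 0.98 log2). Some markers of immune cells were on the ileal side too, 3 of 6 measured plasma and B cell markers and 2 of 4 measured T lymphocyte markers past 2-fold. Igha and Jchain, products of plasma cells, were 3.41-fold and 3.57-fold higher in ileum, Cd8a 3.98-fold (0.34 log2 with the mean of its probe sets) and Gzma at least 2.33-fold. Of 8 measured myeloid markers Lyz2, near-identical to the Paneth cell gene Lyz1, was past 2-fold, and the other 7 were not. Immune cells captured with the epithelium cannot be told apart from epithelial expression here, and their part was not tested. Ccl25, the chemokine that draws lymphocytes to the small intestine, was at 6300 and 304 (20.7-fold), though another probe set read -0.23 log2. Il18 was 3.31-fold and Cxcl10 at least 3.60-fold higher in ileum, and Il1rn, the interleukin-1 receptor antagonist, was 4.15-fold and Ccl28 2.53-fold higher in colon.

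Secretory cell genes were regional in part. Of 19 measured enteroendocrine genes 3 were higher in ileum and 4 lower, beside 7.37% and 5.88% of all measured genes. The list's median was -0.27 log2. Tph1, the enzyme for serotonin synthesis in enterochromaffin cells, was at 66.2 and 1135 (17.2-fold higher in colon). The granule proteins Chga and Chgb were at 491 and 4469 (9.10-fold) and at 1184 and 7863 (6.64-fold). Tph1, Chga and Chgb thus lay on the colonic side, while Scg2 and the somatostatin gene Sst were at least 6.03-fold and 2.93-fold higher in ileum. The peptide hormone genes Gcg, Pyy, Cck and Nts did not pass 2-fold, with values from -0.74 to 0.37 log2. In pooled cells fewer cells of a type and less RNA per cell cannot be told apart. The core goblet genes were alike, Muc2 at 9778 and 11951 and Tff3 at 14524 and 13612. Spink4, a goblet cell peptidase inhibitor, was 4.25-fold higher in ileum, and the membrane mucin Muc4 5.84-fold and Gcnt3, which branches mucin glycans, 3.01-fold higher in colon, with another Muc4 probe set at -0.27 log2. Among glycosyltransferases St3gal4 was 6.30-fold higher in ileum, and St6galnac6, Fut2 (at least 4.24-fold), which makes the epitope of blood group secretors, and St6gal1 (3.07-fold) were higher in colon.

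Of 28 measured transcription factors linked to gut regions, 4 were higher in ileum and 3 lower, beside 7.37% and 5.88% of all measured genes. Maf was at 7165 and 2047 (3.5-fold higher in ileum), Gata5 at 315 and 103 (3.06-fold), Hnf4g at 1596 and 560 (2.85-fold) and Tbx3 at 1958 and 763 (2.57-fold). Pparg, the lipid-sensing receptor, was at 176 and 876 (4.98-fold higher in colon), and Foxa1 and Foxa2 were 2.10-fold and 2.04-fold higher there. The master regulators Cdx2 and Hnf4a were alike, at 3154 and 3140 and at 6304 and 7080, and Gata4 was near the floor at 87.5 and 75.2. Hox genes, which carry position along the body axis, were largely below the floor (22 of 33). Hoxb3 was past 2-fold, at 642 and 1641, with a second probe set at -1.52 log2, and its neighbours Hoxb5 and Hoxb6 were at -0.76 and -0.75 log2.

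Crypt genes had members on both sides, 3 higher and 3 lower of 17 measured, beside 7.37% and 5.88% of all measured genes. The crypt list had a median of -0.04 log2, and 11 members did not pass 2-fold. Olfm4, a stem cell marker of the small intestine, was at 966 and 8.30 (at least 15.5-fold higher in ileum) and the Wnt target Axin2 at 1330 and 173 (7.69-fold). Prom1 and Cd44 were 4.77-fold and 4.60-fold higher in colon, and Lgr5 was below the floor on both arrays. Cell cycle genes had a median of 0.21 log2, with 3 of 29 higher, beside 7.37% of all measured genes. All 3 of these calls, Ccna2, Ccnb2 and Cdc20, were lost with the values as deposited. Of 16 measured clock genes 4 were lower in ileum and 0 higher, beside 5.88% and 7.37% of all measured genes. The median of the clock list was -0.20 log2. Dbp, a clock output gene, was at 94.7 and 797 (8.42-fold higher in colon) and Nr1d2 at 324 and 1664 (5.14-fold), with another Dbp probe set at -0.61 log2. Among tight junction genes Cldn15 and Cldn2, which form cation pores, were 4.36-fold and 2.63-fold higher in ileum and Cldn8, a barrier claudin, 2.84-fold higher in colon.

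Genes past 4-fold were in places next to each other on the chromosome. In the order of GRCm38.p6, 20 adjacent pairs had both members past 4-fold, and in 15 of them both were on the same side. They include Apoa1, Apoc3 and Apoa4 as a run, the divergent pair Abcg5 and Abcg8, Cyp3a11 with Cyp3a25, Slc5a4b with Slc5a4a and Lyz2 with Lyz1 on the ileal side, and Cyp2d10 with Cyp2d9 on the colonic side. Several pairs are related in sequence, so shared probe signal cannot be told apart from shared regional expression. How many such pairs a random gene order would give was not computed, so clustering of these genes was not tested.

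The wild type pair of arrays shares no array with the germ-free pair and measured the same contrast. Its 5′ to 3′ signal differed by 0.64 log2 for Gapdh, 1.46 for Actb and -0.29 for pyruvate carboxylase, each wider than between the germ-free arrays. Of 16 fibroblast and smooth muscle markers measured there, 8 passed 2-fold on the ileal side, against 0 of 11 in germ-free mice. The part of these shifts was not tested. On the wild type arrays, 725 of 12000 measured genes passed 2-fold on the ileal side (6.04%) and 712 on the colonic side (5.93%). Over 11555 genes measured in both pairs, 1582 passed 2-fold in germ-free and 1414 in wild type mice, and 894 passed on the same side in both. These make up 56.5% of the germ-free and 63.2% of the wild type genes, 431 higher and 463 lower in ileum. Of the germ-free genes past 2-fold 90.3% had the same sign in wild type mice, and of those past 4-fold 99.2% (362 of 365), beside 70.9% of all genes. The first share was 92.3% with the values as deposited and 96.2% with the floor at the 75th percentile. Across genes, which are not independent replicates, the differences correlated at r = 0.786 (rho = 0.602), and at 0.859 over 7335 bright genes. Among the 894 shared genes the median size was 1.70 log2 in germ-free and 1.78 in wild type mice, and the germ-free difference was the smaller for 473. These sizes are of genes chosen for passing 2-fold in both pairs.

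**Figure D5:**
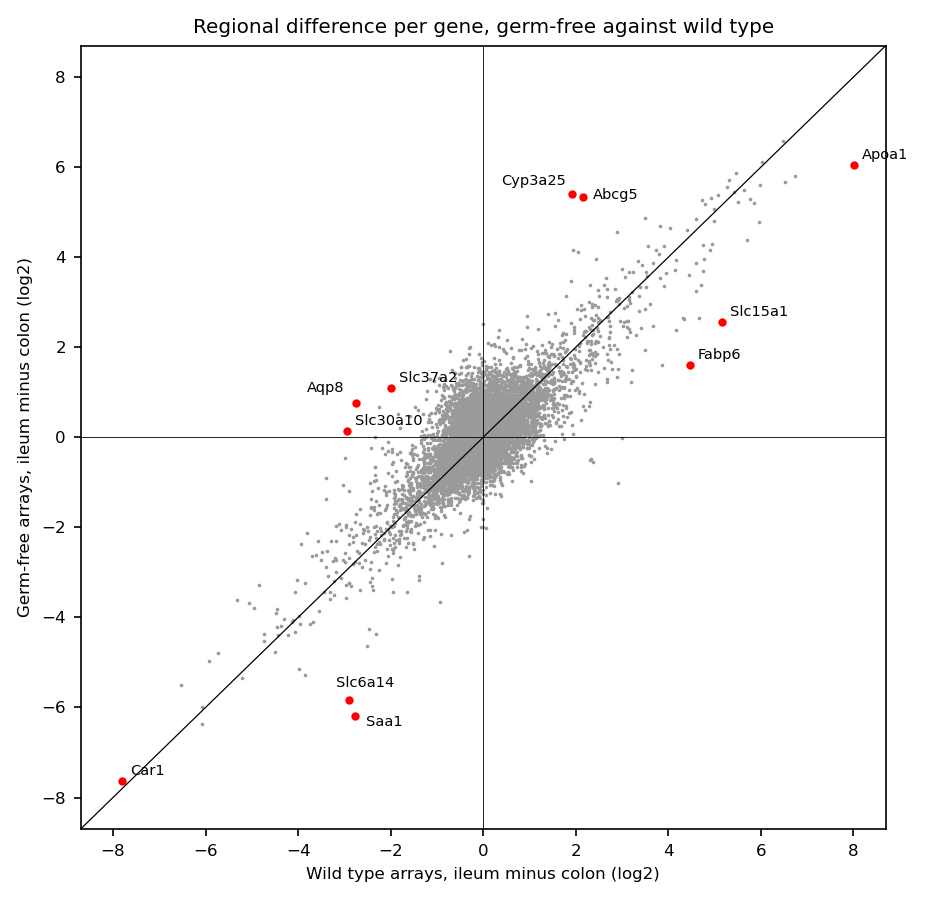
Log2 difference of ileum minus colon per gene on the germ-free arrays (vertical) against the wild type arrays (horizontal), 1 point per gene measured on the germ-free arrays, with the line of equal values. The 894 genes past 2-fold on the same side in both pairs lie in the upper right and lower left; the named red points away from it include Saa1, Slc6a14, Cyp3a25 and Abcg5 (larger without microbes) and Fabp6, Slc15a1, Aqp8 and Slc30a10 (smaller or of the other sign).

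A few genes stood off that pattern, with values chosen for display after they were seen. Slc30a10, a manganese exporter, was at 196 and 179 on the germ-free arrays and at 303 and 2330 on the wild type arrays, so its colonic signal in wild type mice had no counterpart in germ-free colon. Fabp6 and Slc15a1 were brighter on the germ-free than on the wild type colonic array, which narrowed their regional difference. Saa1 and Slc6a14 had lower ileal intensities in germ-free mice, which widened theirs. The difference of Saa1 was also widened by a higher germ-free colonic intensity, at 14149 against 8267 in wild type mice. Past 2-fold in opposite directions were 6 genes in all, of which 2 were bright in both pairs. Gstt1, a glutathione transferase, was at 549 and 272 in germ-free mice and at 511 and 1195 in wild type mice, and Aif1l at 526 and 222 against 204 and 427. With the values as deposited both germ-free calls were lost (0.73 log2 for Gstt1 and 0.97 for Aif1l), and Aif1l was at 0.07 with the mean of its probe sets. The difference between the pairs was not tested for any gene, and it is confounded with whatever else differed between the germ-free and wild type preparations, the named hematoxylin stain included.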

How the data were processed

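RNA of laser-captured ileal and colonic epithelial cells of germ-free mice was measured on 1 short-oligonucleotide array per region, each a pool of 4 mice, and set beside the wild type pair. The deposited values are linear intensities, produced by the authors in dCHIP2004 according to the design text; no source used here gives its options. From them 64 control probe sets were removed, log2 values quantile-normalized over all 4 arrays, and values below the pooled median set to it. Probe sets with 1 gene symbol (34945; 932 had several, 9160 none) were used for genes, named through the platform annotation and a RefSeq table of GRCm38.p6 (34741 matched by identifier, 0 symbols changed). The genes named are the 15 largest differences per direction among bright genes (above 259, the 75th percentile) whose measured probe sets share a direction and which have no clone name, the 4 largest members of every list discussed, further members whose value matters there, and bright genes past 2-fold in opposite directions in the 2 kinds of mice. The 53 lists (857 of 950 entries matched) and these members were chosen with earlier results of these data known. Promoters on chromosome 18 were left out of the motif search. Scaling, floor, probe set choice and fold were varied. Steps were tested on simulated arrays. Python 3.11.15, numpy 2.4.6 and pandas 2.3.3 were used.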

Additional observations from a re-analysis of the deposited data

Results flagged for a closer look

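For 8 genes the regional difference had opposite signs in the germ-free and the wild type pair of arrays, with each of the 2 at least 0.70 log2 from 0. That is 2 times the SD of a single probe set given above, a line set after the values were seen. The search was widened from the genes named by rule to all list members. With 1 array per group none of these differences was tested. Aqp8, the colonocyte water channel, had the widest gap, 3.52 log2 (0.77 in germ-free and -2.74 in wild type mice), followed by Slc37a2 with 3.10 (1.09 and -2.0). Both are colonocyte markers that were bright on the wild type colonic array alone. Aif1l differed by 2.31 (1.25 and -1.07), though its other probe set read -0.13 on the germ-free arrays, and Gstt1 by 2.24 (1.02 and -1.22). With the values as deposited the germ-free differences of Aif1l and Gstt1 were 0.97 and 0.73. The calcium-binding protein gene Scgn differed by 2.27 (1.31 and -0.96), the sialyltransferase gene St3gal6 by 1.99 (1.15 and -0.84), Habp2 by 1.95 (1.14 and -0.81) and the cyclin gene Ccne1 by 1.75 (0.89 and -0.85). Of these, Habp2 and Ccne1 had intensities of at most 204 on every array.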

How the results depend on the processing

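Counts of genes past 2-fold moved most with the floor. With a floor at an intensity of 1, at the 25th and at the 75th percentile, 2299, 1375 and 419 genes were higher in ileum. Lower were 1853 at a floor of 1 and 384 at the 75th percentile. Probe sets numbered 5929, 2801 and 651 higher and 5956, 2833 and 632 lower in that order, and 2446 lower with the values as deposited. A 4-fold line left 189 genes higher and 176 lower. The share of germ-free genes past 2-fold with the same sign in wild type mice was 96.2% with the floor at the 75th percentile and 92.3% as deposited. Of 1661 recomputed gene values 1584 were stable, 61 (47 genes) fell inside 2-fold and 14 moved beyond the spread between probe sets. Ang4 turned to -0.02 once probe sets shared between transcripts were left out, and Krt6a to -0.10 with the mean of its probe sets; the cause was not tested. Lyz1 fell to 0.62 and Apoa4 to 0.52 in the former case. With the mean of the probe sets St6gal1 was at -0.52, Cldn2 at 0.63 and Il1rn at -0.97. With the floor at the 75th percentile dim genes lost their call by construction, among them Fdps (0.37), Gata5 (0.28), Mmp7 (0.11), Tlr2 (-0.26), Fut2 (-0.04), Scg2 (0.54), Apoc2 (0.85), Abcc2 (0.93) and Cela1 (-0.86). Of 377 list medians 43 moved by more than that spread. Over all settings the apolipoprotein median ran from 0.85 to 2.49, that of sugar genes from 1.06 to 2.33, of peptidases from 0.88 to 1.94, of cholesterol synthesis from 0.86 to 1.41 and of colonocyte markers from -1.41 to -0.41. Some medians near 0 changed sign: P450 and carboxylesterase genes ran from -0.42 to 0.13, mucus genes from -0.30 to 0.02 and ion transport from -0.35 to 0.08. Signal over background limits what dim genes can show. No paired analysis was possible because each group has 1 array.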

Other observations

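Several further gene groups had members on either side of the germ-free comparison. Their counts are to be read beside all measured genes, 7.37% of which were past 2-fold on the ileal and 5.88% on the colonic side. In fatty acid synthesis 3 of 14 measured genes were past 2-fold on the ileal side and 1 on the colonic side. Mlxipl, the carbohydrate-sensing factor ChREBP, was at 1253 in ileum and 222 in colon (5.65-fold), Fads2, a fatty acid desaturase, 3.38-fold and Scd1, which makes monounsaturated fat, 2.24-fold higher in ileum, the last at 0.94 log2 with the values as deposited. Fasn, fatty acid synthase itself, was at 1145 and 1014, and Acacb was at least 2.28-fold higher in colon but at -0.03 log2 with the mean of its probe sets. In vitamin A metabolism Rdh7 and Stra6 (2.33-fold) were the ileal ones of 10 measured. The Stra6 call was lost with the values as deposited (0.96 log2) and with the floor at the 75th percentile (0.33 log2). Of 13 oxidase and peroxide defence genes Gpx2, the gastrointestinal glutathione peroxidase, was past 2-fold, at 2000 and 415 (4.82-fold higher in ileum).

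Among 13 measured tuft cell genes 1 passed 2-fold, Alox5ap (3.15-fold higher in ileum). Dclk1 was near the floor at 85.8 and 84.2, and the summed intensity of the list was 3568 in ileum and 4458 in colon. Interferon-stimulated genes did not share a side, with 2 higher and 3 lower of 22. Oas3 was 2.70-fold higher in ileum (0.41 log2 with the floor at the 75th percentile), and Irf7, at 1788 and 3960, was 2.22-fold higher in colon, a call lost with median scaling (-0.85 log2). Of 17 immediate early genes 0 were past 2-fold on the ileal side and 3 on the colonic side: Jun (2.56-fold), Dusp1 (2.49-fold) and Atf3 (2.03-fold, -0.87 log2 with median scaling). Fos and Egr1 were at -0.14 and -0.18 log2.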
